A study of Mus musculus with 7 samples.

Results

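The 10 genes of MHC class I antigen processing described here are H2-K1, H2-D1, B2m, Tap1, Tap2, Tapbp, Psmb8, Psmb9, Nlrc5 and Psme1. They were listed by name for their place in the pathway, by a rule that uses no measured value. The choice was made with earlier results of these data known. The genes make up 10 of the 55423 features in the count table. All 10 had at least 5 reads in at least 1 tumour and so belong to the 24433 genes that were tested. Bulk RNA was sequenced after removal of ribosomal RNA from cutaneous squamous cell carcinomas (cSCC) of mice on a C57BL/6J background. In Ivl:BRAFV600E mice, tamoxifen on the skin activates a CreERT recombinase under the involucrin promoter, which switches on the BRAF oncogene in involucrin-positive keratinocytes. The Ivl:BRAFV600E-SOX2LSL mice carry in addition a Rosa26 allele that gives SOX2 and eGFP after the same recombination. Both groups thus share Cre, tamoxifen and the oncogene, were induced at an age of 7 to 10 weeks and were followed to clinical endpoint, and 2 of the 3 Ivl:BRAFV600E mice also carried a Rosa26 tdRFP reporter. The Ivl:BRAFV600E-SOX2LSL tumours were collected earlier after induction, so time and genotype cannot be told apart. There were 3 tumours of each genotype, called tumours 1, 2 and 3 of the BRAF and of the BRAF-SOX2 group below. The sex of the mice was female, female and male in BRAF tumours 1, 2 and 3, and male, male and female in BRAF-SOX2 tumours 1, 2 and 3.

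MHC class I molecules show fragments of a cell's own proteins at its surface, where CD8+ T cells and NK cells read them. The proteasome cuts the proteins, the TAP transporter moves the peptides into the endoplasmic reticulum, and the loading complex places them on a heavy chain paired with beta-2-microglobulin. In skin and in squamous tumours both keratinocytes and infiltrating leukocytes make these molecules, and interferon-gamma is the best known inducer of the pathway. Much of the pathway is encoded in the MHC itself, on mouse chromosome 17.

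The libraries held between 23565432 and 31152826 counts on genes, and 3 counts, taken as the smallest level that can be told from 0, correspond to 0.0839 to 0.143 CPM (counts per 1 M, scaled by TMM, a correction for library composition). The genotype was checked with Sox2, which stood at 0.716, 0.508 and 0.238 CPM in the BRAF tumours and at 182, 155 and 158 CPM in the BRAF-SOX2 tumours. Reads on EGFP were 0 in each BRAF tumour and 4957, 3410 and 3132 in BRAF-SOX2 tumours 1, 2 and 3. The epithelial label was checked with keratinocyte markers: Trp63, a basal keratinocyte factor, stood between 261 and 297 CPM in the BRAF tumours and between 281 and 321 CPM in the BRAF-SOX2 tumours. Krt10, a keratin of differentiating keratinocytes, stood at 28863 to 36342 CPM against 425 to 7214 CPM, without passing the edgeR test (adjusted p = 0.0935), while DESeq2 (0.000425) and limma (0.0244) called it lower. Summed, 12 skeletal muscle genes stood at 4.60 to 17.7 CPM in the BRAF tumours and at 793 to 3431 CPM in the BRAF-SOX2 tumours. By the edgeR test 11 of these 12 rose, where 2.39% of all tested genes were called higher. With a tumour left out 0 to 12 rose. The number was 0 without BRAF tumour 1 or 2, 4 without BRAF tumour 3 and 5 without BRAF-SOX2 tumour 2. In bulk tumours, fewer cells of a type and less RNA per cell cannot be told apart.

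The promoters of the heavy chains and of beta-2-microglobulin are shown first, because they carry the elements through which the class I genes are known to be controlled together: a kappa-B element, an interferon-stimulated response element and the X and Y boxes of the SXY module, the place where NLRC5 acts with RFX, CREB and NF-Y proteins. The sequences are from RefSeq windows (250 bases before to 50 bases after the annotated start, GRCm38.p6), in which 8 of the 10 genes have an entry and Tap2 and Nlrc5 do not. Capitals mark, on either strand, GGGGATTCC (kappa-B), GAANNGAAA or GAAANNGAA (interferon response), TGACG with the C of TGACGC where present (part of the X region) and CCAAT (Y box), all read 5′ to 3′ on the strand of the gene. TGACG lies within TGACGC by construction, and GAANNGAAA and GAAANNGAA can match the same bases.
H2-K1, chr17:34000354-34000463, minus strand, bases -116 to -7 from the first of its listed starts: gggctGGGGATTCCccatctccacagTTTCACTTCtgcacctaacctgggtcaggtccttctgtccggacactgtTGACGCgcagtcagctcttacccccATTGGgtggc
H2-D1, chr17:35262918-35263027, plus strand, bases -176 to -67: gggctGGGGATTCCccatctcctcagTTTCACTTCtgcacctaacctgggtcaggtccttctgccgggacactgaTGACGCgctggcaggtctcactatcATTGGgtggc
B2m, chr2:122147543-122147642, plus strand, bases -144 to -45: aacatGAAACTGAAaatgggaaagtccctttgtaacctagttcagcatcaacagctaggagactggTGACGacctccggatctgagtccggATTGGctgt

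The H2-K1 and H2-D1 stretches share 99 of 110 bases (90%, without gaps), and their 4 elements stand in the same order at the same spacing. The shares below are for 32851 whole mouse windows (250 bases before to 50 bases after a start), searched on both strands. Of these, 0.25% hold GGGGATTCC, and among the 8 genes with a window it was found in H2-K1 and H2-D1. Other forms of the kappa-B element were not searched for, so its absence elsewhere, as in B2m, concerns this exact sequence. GAANNGAAA occurs in 7.52% of windows and was found in H2-K1, H2-D1 and Psme1, while GAAANNGAA occurs in 8.56% and was found in B2m and Psme1. In Psme1 both matches lie after the start. TGACGC, present in 7.4% of windows, was found in H2-K1 and H2-D1. TGACG, in 20.8% of windows, was found in H2-K1, H2-D1, B2m, Tap1 and Psmb9. CCAAT, in 37.4% of windows, was found in these 5 genes and in Tapbp.

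Tap1 and Psmb9 are transcribed away from each other, and 225 bases lie between their starts in RefSeq, so that these bases stand before both starts. The merged GENCODE span of Psmb9, given below, begins farther upstream and includes them. The stretch is printed on the Tap1 strand, with TGACG and CCAAT in capitals.
Tap1 and Psmb9, chr17:34187331-34187555, plus strand, bases -225 to -1 of Tap1: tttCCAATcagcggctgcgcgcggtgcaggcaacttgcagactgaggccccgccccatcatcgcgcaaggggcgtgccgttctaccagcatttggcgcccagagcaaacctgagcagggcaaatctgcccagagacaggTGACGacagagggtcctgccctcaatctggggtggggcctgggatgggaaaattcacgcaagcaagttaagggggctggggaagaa

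The classical heavy chains and their partner, which form the class I molecule itself, stood higher in every BRAF-SOX2 tumour than in any BRAF tumour, and none of the 3 passed the edgeR test. H2-K1 (ENSMUSG00000061232, chr17:33996017-34000347, minus strand), the H2-K heavy chain, stood at 77.5, 78.7 and 146 CPM in BRAF tumours 1, 2 and 3 and at 416, 180 and 261 CPM in BRAF-SOX2 tumours 1, 2 and 3. The groups did not overlap, and BRAF-SOX2 tumour 1 stood well above the rest. The mean was 101 ± 39.3 CPM (SD, n = 3) against 286 ± 120 CPM (SD, n = 3). On the log2 scale H2-K1 was higher by 1.5 (SE 0.37, edgeR adjusted p = 0.0684), which missed the threshold of 0.05.

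H2-D1 (ENSMUSG00000073411, chr17:35262730-35267499, plus strand), the H2-D heavy chain, stood at 135, 148 and 229 CPM in the BRAF tumours and at 531, 295 and 388 CPM in the BRAF-SOX2 tumours. The order of the tumours was that of H2-K1, again without overlap. Its mean was 171 ± 50.8 CPM against 405 ± 119 CPM (SD, n = 3 each), and the log2 fold change was 1.24 (SE 0.28, edgeR adjusted p = 0.057). H2-K1 and H2-D1 share long stretches of coding sequence with other class I genes, and how reads with several matches were counted is not given in the sources used here, so the split of reads between them is uncertain.

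The H2-K1 count as a percentage of the H2-D1 count was 57.3%, 53.0% and 63.8% in the BRAF tumours and 78.4%, 61.2% and 67.2% in the BRAF-SOX2 tumours. These ranges overlap, and the difference of 0.25 on the log2 scale gave p = 0.2 in an exact two-sided permutation test, in which 3 against 3 tumours cannot go below 0.1. Without BRAF-SOX2 tumour 1 it was 0.15.

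B2m (ENSMUSG00000060802, chr2:122147686-122153083, plus strand), the beta-2-microglobulin light chain, is encoded outside the MHC. Its level was 48.0, 51.2 and 105 CPM in the BRAF tumours and 467, 130 and 183 CPM in the BRAF-SOX2 tumours. All 3 BRAF-SOX2 tumours lay above all 3 BRAF tumours, and tumour 1 stood more than 2 times above the other two of its group. At 68.0 ± 31.9 CPM against 260 ± 181 CPM (SD, n = 3 each), B2m had the largest log2 fold change of the 10 genes (1.94, SE 0.53, edgeR adjusted p = 0.0846). Without BRAF-SOX2 tumour 1 it was 1.20.

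**Figure D1:**
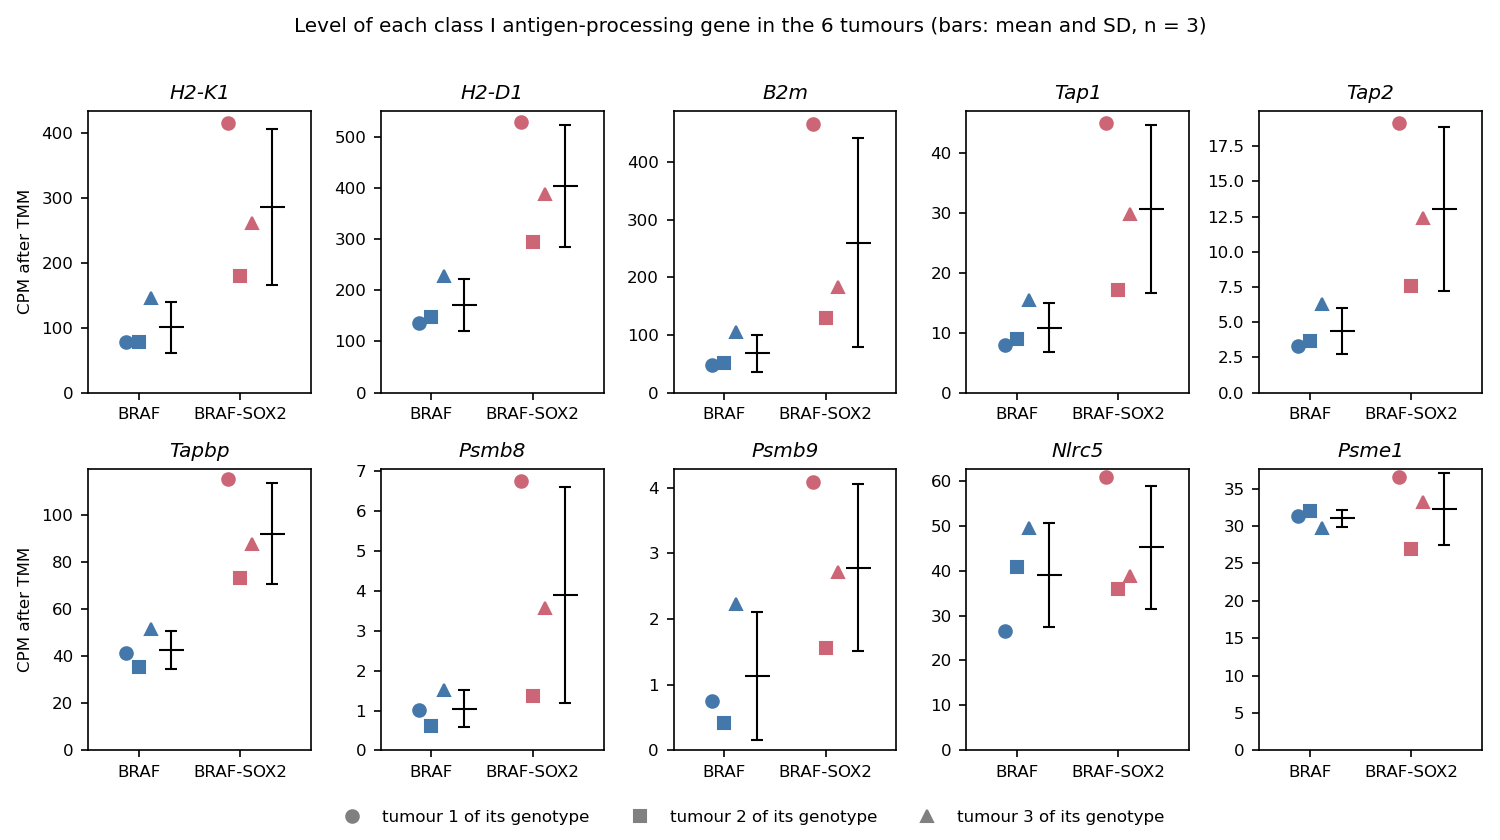
Level of each of the 10 genes (vertical axes, CPM after TMM, each panel with its own scale from 0) in the 3 BRAF tumours (blue) and the 3 BRAF-SOX2 tumours (red), with circles, squares and triangles for tumours 1, 2 and 3 of each genotype and black bars for the mean and SD (n = 3). In H2-K1, H2-D1, B2m, Tap1, Tap2 and Tapbp every red symbol lies above every blue one, and in Psmb8, Psmb9, Nlrc5 and Psme1 the groups overlap.

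The transporter genes had the same order of tumours as the heavy chains, and neither passed the edgeR test. Tap1 (ENSMUSG00000037321, chr17:34187553-34197225, plus strand), one chain of the TAP peptide transporter, stood at 7.91, 8.96 and 15.5 CPM in the BRAF tumours and at 45.0, 17 and 29.7 CPM in the BRAF-SOX2 tumours. There was no overlap, although BRAF tumour 3 and BRAF-SOX2 tumour 2 lay close together. It differed by a log2 fold change of 1.51 (SE 0.40, edgeR adjusted p = 0.0785).

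Tap2 (ENSMUSG00000024339, chr17:34203527-34216321, plus strand), the other chain of the transporter, stood at 3.27, 3.65 and 6.27 CPM in the BRAF tumours and at 19.2, 7.55 and 12.4 CPM in the BRAF-SOX2 tumours. The tumours had the same order as for Tap1 and did not overlap. Between the groups the log2 fold change was 1.57 (SE 0.40, edgeR adjusted p = 0.0725). Exons of Tap1 overlap those of Psmb9 on the opposite strand, and exons of Tap2 overlap Gm15821 and Gm20496 on the opposite strand, and whether counting used strand is not given in the sources used here.

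Tapbp was the 1 gene of the 10 that passed the test, and it rose. Tapbp (ENSMUSG00000024308, chr17:33915899-33929292, plus strand) encodes tapasin, which bridges TAP and the empty heavy chain in the loading complex. It stood at 41.3, 35.4 and 51.5 CPM in the BRAF tumours and at 115, 73.1 and 87.7 CPM in the BRAF-SOX2 tumours, without overlap. The mean was 42.7 ± 8.13 CPM against 92.1 ± 21.5 CPM (SD, n = 3 each), and the log2 fold change was 1.11 (SE 0.21, edgeR adjusted p = 0.0414). The spread within each group was narrower, relative to the mean, than for the heavy chains and TAP. Exons of Tapbp overlap Gm19412 on the opposite strand and Zbtb22 on the same strand.

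The call for Tapbp rests on all tumours but one. Its adjusted p was 0.0306 without BRAF-SOX2 tumour 1, but 0.169, 0.133 and 0.0689 without BRAF tumour 1, 2 or 3 and 0.0616 and 0.0755 without BRAF-SOX2 tumour 2 or 3. With the sex of the mice as a covariate it was 0.093. The log2 fold change stayed between 0.91 and 1.26 in the fits with a tumour removed.

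Psmb8 and Psmb9, inducible catalytic subunits of the immunoproteasome, had the fewest reads of the 10 genes. Psmb8 (ENSMUSG00000024338, chr17:34197721-34201454, plus strand), the beta5i subunit, stood at 1.02, 0.60 and 1.52 CPM in the BRAF tumours, which are 30, 13 and 32 reads, and at 6.74, 1.36 and 3.58 CPM, or 241, 42 and 99 reads, in the BRAF-SOX2 tumours. BRAF-SOX2 tumour 2 lay below BRAF tumour 3, so the groups overlap. Psmb8 had a log2 fold change of 1.89 (SE 0.62, edgeR adjusted p = 0.118), and of 1.23 without BRAF-SOX2 tumour 1. Exons of Psmb8 overlap Gm20496 on the opposite strand.

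Psmb9 (ENSMUSG00000096727, chr17:34181987-34187764, minus strand), the beta1i subunit, stood at 0.750, 0.416 and 2.23 CPM in the BRAF tumours and at 4.08, 1.55 and 2.71 CPM in the BRAF-SOX2 tumours. Here too BRAF-SOX2 tumour 2 was below BRAF tumour 3. The log2 fold change of 1.30 (SE 0.65) had an edgeR adjusted p of 0.252. The value was 2.23 without BRAF tumour 3, and 0.91 without BRAF tumour 2 or without BRAF-SOX2 tumour 1.

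Each inducible subunit can replace a constitutive one, so the inducible count was set against its constitutive counterpart in the same library, a ratio that does not depend on the scaling of the libraries. Psmb8 reads were 1.58%, 0.706% and 2.43% of those of Psmb5 (beta5) in the BRAF tumours and 15.8%, 2.66% and 6.04% in the BRAF-SOX2 tumours. All 3 BRAF-SOX2 ratios were the higher ones, by 2.18 on average on the log2 scale, with p = 0.1, the smallest that the exact two-sided permutation test can give here. Reads are not corrected for gene length, so these percentages compare tumours and are not shares of subunits. The constitutive Psmb5, Psmb6 and Psmb7 were themselves lower in every BRAF-SOX2 tumour (log2 fold changes -0.47, -0.29 and -0.46), which adds to the differences in the ratios.

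Psmb9 reads were 1.02%, 0.492% and 3.19% of those of Psmb6 (beta1) in the BRAF tumours and 6.88%, 2.49% and 4.14% in the BRAF-SOX2 tumours, with overlap (log2 difference 1.82, p = 0.2 in the exact permutation test; 1.20 without BRAF tumour 2 and 2.55 without BRAF tumour 3). Psmb10, the beta2i subunit, which is encoded outside the MHC, reached 13.2%, 9.37% and 16.9% of the reads of Psmb7 (beta2) in the BRAF tumours and 34.3%, 16.9% and 25.7% in the BRAF-SOX2 tumours. The highest BRAF ratio and the lowest BRAF-SOX2 ratio of Psmb10 to Psmb7 were nearly the same, with a log2 difference of 0.95 between the group means (p = 0.1, exact permutation test). With 4 ratios compared, no p-value of this family is below 0.1 before any adjustment.

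**Figure D2:**
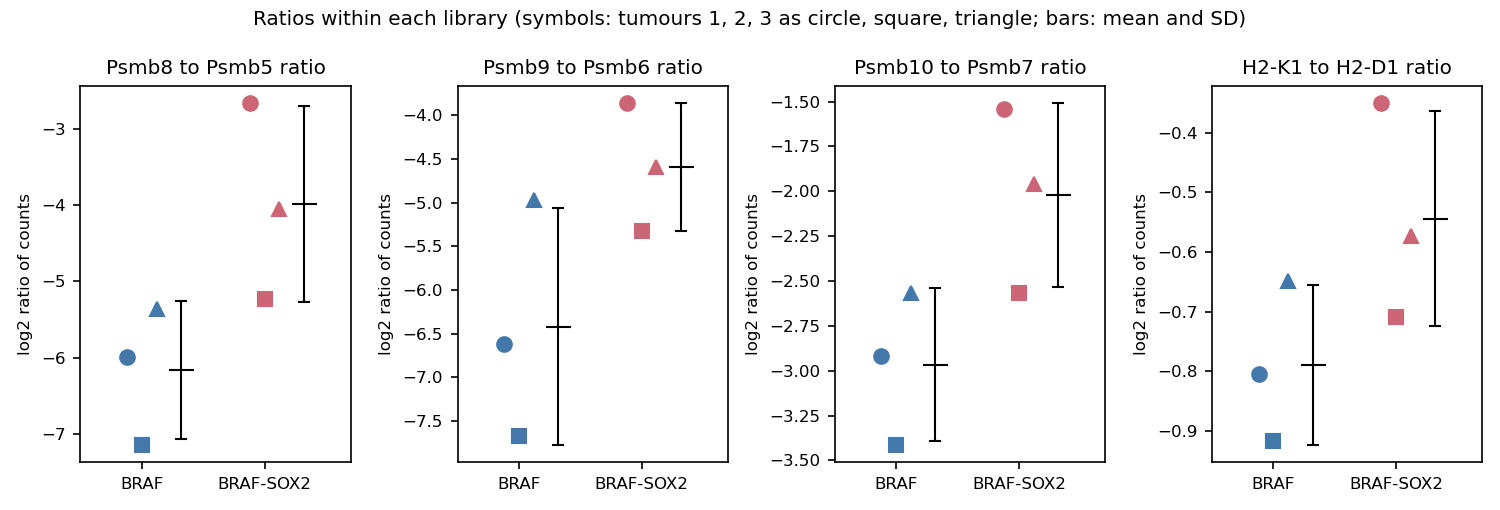
Log2 ratio of raw counts within each library (vertical axes, each panel with its own range) for the 3 inducible proteasome subunits against the constitutive ones and for H2-K1 against H2-D1, in the BRAF (blue) and BRAF-SOX2 (red) tumours, with mean and SD (n = 3). Psmb8 to Psmb5 separates the groups by 2.18 on average, Psmb10 to Psmb7 nearly touches, and Psmb9 to Psmb6 and H2-K1 to H2-D1 overlap.

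Nlrc5 and Psme1 behaved unlike the other 8 genes in these tumours. Nlrc5 (ENSMUSG00000074151, chr8:94434356-94527272, plus strand), the transactivator of the class I genes, stood at 26.6, 40.7 and 49.5 CPM in the BRAF tumours and at 60.9, 35.9 and 38.8 CPM in the BRAF-SOX2 tumours. The BRAF-SOX2 group held the highest tumour, while its other tumours lay inside the BRAF range. The log2 fold change was 0.21 (SE 0.28, edgeR adjusted p = 0.669) and turned to -0.063 without BRAF-SOX2 tumour 1. Exons of Nlrc5 overlap 9330175E14Rik on the opposite strand.

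Psme1 (ENSMUSG00000022216, chr14:55578123-55581529, plus strand), the PA28-alpha activator that caps the proteasome, was the steadiest of the 10. Its level was 31.3, 32 and 29.7 CPM in the BRAF tumours and 36.5, 27.0 and 33.3 CPM in the BRAF-SOX2 tumours, so the BRAF values lie within the BRAF-SOX2 range. The log2 fold change was 0.06 (SE 0.15, edgeR adjusted p = 0.841), and its sign turned with the scaling of the libraries (-0.045 with upper-quartile scaling). Exons of Psme1 overlap Emc9 on the opposite strand.

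By the edgeR test, 1 of the 10 genes rose and 0 fell, where 2.39% of the 24433 tested genes were called higher and 1.51% lower. At an unadjusted p below 0.05, 7 of the 10 were higher, against 14.5% of all tested genes. In 6 of the 10 genes every BRAF-SOX2 tumour lay above every BRAF tumour, which held for 18.2% of all tested genes, and in 0 of the 10 every BRAF-SOX2 tumour lay below, which held for 16%. All 10 log2 fold changes were above 0, with a median of 1.40 against 0.04 over all tested genes, although the signs of Nlrc5 and Psme1 turned under the settings named above and that of Psme1 also with limma. The DESeq2 test called 7 of the 10 (H2-K1, H2-D1, B2m, Tap1, Tap2, Tapbp and Psmb8), where it called 10.5% of its 20046 genes higher, and limma with voom called H2-K1, H2-D1 and Tapbp, where it called 4.8% higher.

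The tumours kept nearly the same order from gene to gene. BRAF-SOX2 tumour 1 was the highest of its group in 10 of the 10 genes and tumour 2 the lowest in 10 of 10, while over the 14430 genes with a mean of at least 1 CPM tumour 1 was the highest of its group in 42.4%. Within the BRAF group tumour 3 was the highest in 9 of the 10 genes, with Psme1 as the exception, and over all these genes it was the highest in 32.1%. The median of the centred log2 levels of the 10 genes was -0.94, -0.94 and -0.15 in BRAF tumours 1, 2 and 3 and 1.37, 0.04 and 0.66 in BRAF-SOX2 tumours 1, 2 and 3. BRAF tumour 3 and BRAF-SOX2 tumour 2 thus lay near each other between the extremes.

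Levels of different genes were compared only as CPM per kb of exon, with all annotated exons of a gene merged, which understates genes with long minor transcripts. In the BRAF tumours B2m had the highest mean level at 79.0 CPM per kb, followed by H2-D1 at 66.3 and H2-K1 at 34.3. The ranges of B2m (55.8 to 122) and H2-D1 (52.5 to 88.8) overlap on this scale, and those of H2-D1 and H2-K1 (26.4 to 49.7) do not. Psme1 at 14 and Tapbp at 11.8 CPM per kb came next, with overlapping ranges (13.5 to 14.5 and 9.75 to 14.2), then Nlrc5 at 4.59, Tap1 at 1.97 and Tap2 at 1.16, and Psmb8 and Psmb9 were lowest at 0.31 each.

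In the BRAF-SOX2 tumours the first 3 genes kept their order, with B2m at 302 CPM per kb, H2-D1 at 157 and H2-K1 at 97.3. The range of H2-D1 (114 to 206) overlaps those of B2m (151 to 543) and H2-K1 (61.4 to 142), so neighbours in this order do not separate. Tapbp at 25.4 stood above Psme1 at 14.6 CPM per kb, with no overlap between their ranges (20.1 to 31.8 against 12.2 to 16.5). Tap1 at 5.59 and Nlrc5 at 5.32 CPM per kb overlapped, Tap2 followed at 3.45, and Psmb8 at 1.15 and Psmb9 at 0.76 remained lowest and overlapped each other.

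Of these genes, 7 lie together in the MHC, in an interval of 1.35 Mb on chromosome 17 from Tapbp to H2-D1 (chr17:33915899-35267499). Within it, Psmb9, Tap1, Psmb8 and Tap2 form a tight block: the GENCODE spans of Psmb9 and Tap1, which merge all transcripts, overlap by 212 bases, 495 bases separate Tap1 from Psmb8 and 2072 bases separate Psmb8 from Tap2. H2-K1 lies 181639 bases before this block and H2-D1 lies 1046408 bases after it. The interval holds 94 other tested genes, of which 2 rose and 1 fell in the edgeR test, near the 2.39% and 1.51% of all tested genes.

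The median log2 fold change of those 94 neighbours was -0.05, against 1.5 for the 7 class I genes among them. The neighbours include 9 MHC class II presentation genes, named after their values were seen, and 6 of them had log2 fold changes in the range of the class I genes or just below: H2-DMb1 1.62, H2-Ab1 1.28, H2-DMb2 1.26, H2-Eb1 1.19, H2-Aa 1.05 and H2-DMa 0.83. None passed the edgeR test (adjusted p = 0.0863 to 0.170), and the 3 H2-DM genes did not overlap between groups. H2-Oa, H2-Ob and H2-Eb2 had -1.55, -0.28 and -0.51, and H2-Oa was lower in every BRAF-SOX2 tumour. Every BRAF-SOX2 tumour lay above every BRAF tumour in 16 of the 94 and below in 15, near the 18.2% and 16% of all tested genes, and above in 5 of the 7. The 3 neighbours called, named after their values were seen, were Notch4, a Notch receptor (log2 fold change 1.53, edgeR adjusted p = 0.0253), Cfb, complement factor B (2.84, adjusted p = 0.0491), and Csnk2b, the regulatory subunit of casein kinase 2 (-0.84, adjusted p = 0.0438). With each tumour removed, the adjusted p reached at most 0.122 for Notch4, 0.186 for Cfb and 0.169 for Csnk2b, each without BRAF tumour 1.

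**Figure D3:**
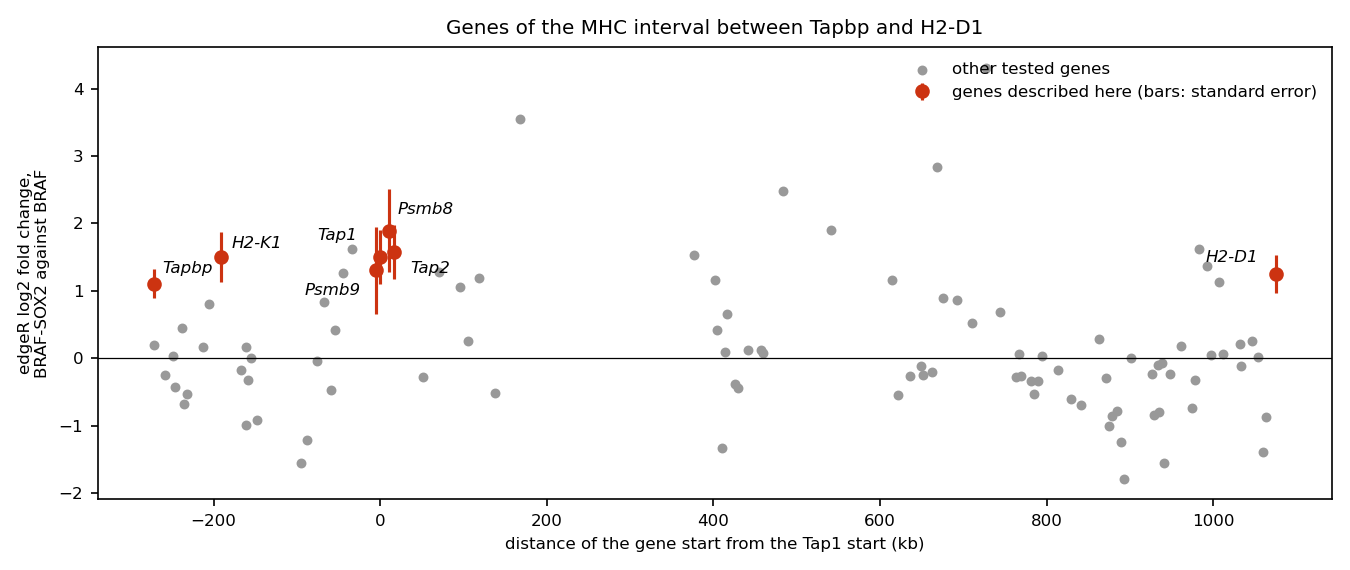
Log2 fold change between BRAF-SOX2 and BRAF tumours (vertical axis) against the distance of each gene start from that of Tap1 (horizontal axis, kb) for the tested genes of the MHC interval, with the 7 class I antigen-processing genes in red (bars, SE) and the 94 other genes in grey. The red points lie between 1.11 and 1.89, and the grey points spread on both sides of 0 with a median of -0.05.

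The other class I and class I-like heavy chains, non-classical genes and pseudogenes of the MHC with Mr1, Cd1d1 and Fcgrt, had summed levels of 55.9 to 89.5 CPM in the BRAF tumours and 84.0 to 172 CPM in the BRAF-SOX2 tumours. Of 20 listed genes 18 were tested and 0 passed the edgeR test, where 2.39% of all tested genes were called higher. However, 8 had an unadjusted p below 0.05 and DESeq2 called 5, all higher (14.5% and 10.5% of all genes were so). In 7 of the 18 the BRAF-SOX2 tumours lay above the BRAF tumours without overlap (18.2% of all tested genes), and in 0 below, with a median log2 fold change of 1.15. H2-T22, a non-classical chain, stood at 9.69, 9.79 and 14.5 CPM in the BRAF tumours and 27.6, 14 and 20.1 CPM in the BRAF-SOX2 tumours (log2 fold change 0.86, adjusted p = 0.123). H2-M2 (2.44, adjusted p = 0.084) and H2-T10 (2.46, adjusted p = 0.0901, and a log2 fold change of 1.52 without BRAF-SOX2 tumour 1) were below 3 CPM in every tumour, and Cd1d1, which presents lipids, had a log2 fold change of 1.0 (adjusted p = 0.118). These genes resemble each other in sequence, so their reads too may be split between paralogs.

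Other genes of peptide trimming and loading lay on both sides of 0, with 3 higher and 3 lower without overlap, against 18.2% and 16% of all tested genes. Of 13 tested, 0 passed the edgeR test (2.39% of all tested genes were called higher and 1.51% lower). At an unadjusted p below 0.05, 2 were higher and 2 lower (14.5% and 11.2% of all tested genes). DESeq2 called 1 higher and 2 lower, where it called 10.5% of its genes higher and 7.76% lower. The median log2 fold change was 0.01. The chaperones of the loading complex Calr, Canx and Pdia3 had log2 fold changes of -0.17, -0.07 and 0.05, the tapasin relative Tapbpl 0.01, and the peptide-trimming enzyme Erap1 0.35. When single tumours were left out, the signs of Pdia3 and Tapbpl turned and Calr ranged from -0.25 to -0.081. Thop1, a cytosolic peptidase that destroys class I peptides, stood at 229, 249 and 211 CPM in the BRAF tumours and at 39.8, 91.8 and 119 CPM in the BRAF-SOX2 tumours, without overlap (log2 fold change -1.46, SE 0.36, edgeR adjusted p = 0.0692). Nrd1, a further peptidase, was also lower without overlap (-0.67, adjusted p = 0.113), while Ergic1 and Bcap31, both of early secretory membranes, were higher without overlap (0.82 and 0.39, adjusted p = 0.0846 and 0.138). Without BRAF-SOX2 tumour 1 the log2 fold change of Ergic1 was 0.53 and that of Erap1 0.19.

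Among 4 other genes of the inducible proteasome, 0 passed the edgeR test or had an unadjusted p below 0.05, and DESeq2 called 0, where 2.39%, 14.5% and 10.5% of all genes were higher and 1.51%, 11.2% and 7.76% lower. Psmb10 had a log2 fold change of 0.53 (adjusted p = 0.248), Psme2, the PA28-beta partner of Psme1, 0.29 (0.345), Psme2b 0.21 (0.641) and Pomp, the assembly factor, -0.17 (0.390). The median of the 4 was 0.25. These small values moved with single tumours, Psmb10 to 0.28 without BRAF-SOX2 tumour 1, Psme2 to 0.18 without BRAF tumour 2 and Psme2b to -0.058 without BRAF-SOX2 tumour 3.

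The constitutive core and the other activators of the proteasome had log2 fold changes mostly below 0. Of 16 genes 0 passed the edgeR test (2.39% of all tested genes were called higher and 1.51% lower). At an unadjusted p below 0.05 there were 5, all lower (11.2% of all tested genes). DESeq2 called 0, where it called 10.5% of its genes higher and 7.76% lower. In 9 of the 16 every BRAF-SOX2 tumour was below every BRAF tumour, where 16% of all tested genes were so, and the median log2 fold change was -0.27. The summed level of the 16 genes was 1232 to 1479 CPM in the BRAF tumours and 1101 to 1173 CPM in the BRAF-SOX2 tumours. Psmb7 (beta2; -0.46, adjusted p = 0.123), Psme3 (PA28-gamma; -0.36, 0.148), Psmb5 (beta5; -0.47, 0.154) and Psme4 (PA200; -0.37, 0.157) had the smallest p.

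Of 15 listed transcription regulators of class I genes, 2 rose and 0 fell in the edgeR test (2.39% and 1.51% of all tested genes), with a median log2 fold change of 0.31. In 8 of the 15 the BRAF-SOX2 tumours lay above without overlap and in 3 below, against 18.2% and 16% of all tested genes. Nfkb1, which encodes the p50 subunit that binds the kappa-B element, stood at 87.6, 80.0 and 97.4 CPM in the BRAF tumours and at 155, 148 and 145 CPM in the BRAF-SOX2 tumours (log2 fold change 0.76, SE 0.12, adjusted p = 0.0281). Relb, a second NF-kappa-B subunit, stood at 6.10, 4.34 and 6.65 CPM against 14.4, 12.7 and 11.0 CPM (1.16, SE 0.22, adjusted p = 0.0409). The 3 BRAF-SOX2 tumours lay close together in both. With a tumour removed, both calls held without BRAF-SOX2 tumour 1 (adjusted p = 0.0185 and 0.0437) and were lost without any of the other 5 tumours, at 0.0614 to 0.139 for Nfkb1 and 0.0642 to 0.156 for Relb. With sex as a covariate they were lost as well (0.0732 and 0.0886).

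The other regulators differed in both directions and did not pass the test. Nfya, an NF-Y subunit, and Irf2, an interferon regulatory factor, both had log2 fold changes of 0.39 (adjusted p = 0.140 and 0.154), and Rfx5 had 0.51 (0.162). Of the other partners of NLRC5, Rfxap (-0.35, and -0.19 without BRAF-SOX2 tumour 1) and Nfyc (-0.21) were lower in every BRAF-SOX2 tumour, Nfyb had 0.33, and Creb1 and Rfxank had 0.067 and 0.016, with signs that turned when single tumours were left out. The repressor components Suz12, Ezh2 and Eed had -0.39, 0.31 and 0.13 (adjusted p = 0.158, 0.216 and 0.654). Suz12 was lower and Ezh2 higher in every BRAF-SOX2 tumour. Irf1, the interferon regulatory factor induced by interferon-gamma, stood at 3.96, 4.85 and 5.75 CPM in the BRAF tumours and 16.5, 5.96 and 7.40 CPM in the BRAF-SOX2 tumours, with tumour 1 again the highest (log2 fold change 1.04, adjusted p = 0.163, and 0.46 on the log2 scale without that tumour).

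**Figure D4:**
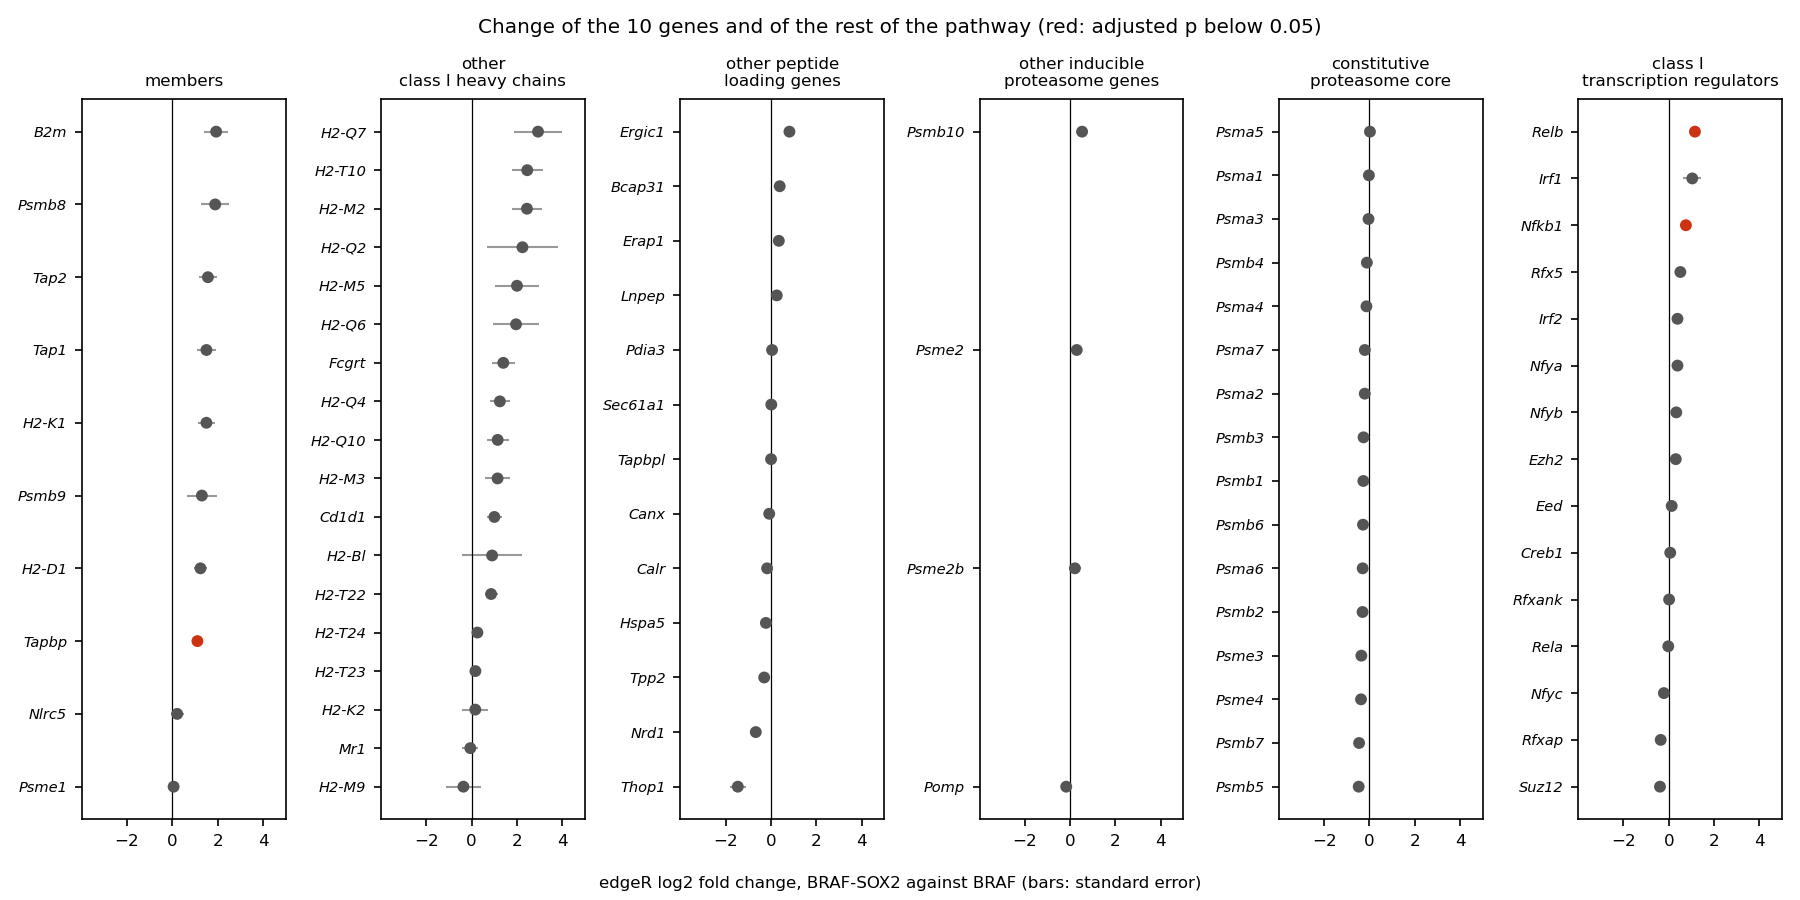
Log2 fold change between BRAF-SOX2 and BRAF tumours (horizontal axis; bars, SE; red, edgeR adjusted p below 0.05) for the 10 genes (first panel) and for 5 lists of further pathway genes, each gene on its own line. Tapbp, Nfkb1 and Relb are red, the heavy chains lie mostly to the right of 0 with a median of 1.15, and the constitutive proteasome genes lie slightly to the left with a median of -0.27.

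In the interferon-gamma pathway 3 signalling genes rose, while the ligand stayed below the filter and the listed induced genes did not pass the test. Of 11 listed genes 10 were tested, Ifng itself being below the filter of 5 reads in every tumour, and 3 rose and 0 fell, where 2.39% and 1.51% of all tested genes did. Ifngr1, a chain of the interferon-gamma receptor, stood at 24.4, 15.7 and 28.7 CPM in the BRAF tumours and at 50.5, 66.9 and 75.6 CPM in the BRAF-SOX2 tumours (log2 fold change 1.49, SE 0.25, adjusted p = 0.0308). Jak2, the kinase bound to the other receptor chain, rose from 32.2, 31.9 and 35.0 CPM to 55.4, 70.1 and 56.6 CPM (0.88, adjusted p = 0.0267), and Socs3, a feedback inhibitor of cytokine receptors, rose from 18.5, 22.3 and 14.2 CPM to 44.5, 39.4 and 38.3 CPM (1.15, adjusted p = 0.0283). For Ifngr1, BRAF-SOX2 tumour 1, the highest for all 10 class I genes, was the lowest of its group. These 3 calls, too, held without BRAF-SOX2 tumour 1 and were lost without any of the other 5, with an adjusted p of 0.0524 to 0.129 for Jak2, 0.0554 to 0.129 for Socs3 and 0.0626 to 0.134 for Ifngr1. Sex as a covariate also ended them, at 0.0707, 0.0651 and 0.0762.

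Ifngr2, the second receptor chain, had a log2 fold change of 0.54 (adjusted p = 0.111), Irf8 1.05 (0.163, and a log2 fold change of 0.64 without BRAF-SOX2 tumour 1) and Ciita, the class II counterpart of NLRC5, 0.98 (0.167). Of 16 GTPases, chemokines and other genes induced by interferon-gamma, 15 were tested and 0 passed the edgeR test, 1 had an unadjusted p below 0.05 and DESeq2 called 0, where 2.39%, 14.5% and 10.5% of all genes were higher by these rules. Their median log2 fold change was 0.80. Irgm1, a GTPase of cell-autonomous defence, stood at 3.58, 2.82 and 3.85 CPM against 9.04, 4.66 and 5.27 CPM (0.89, adjusted p = 0.134, and 0.54 without BRAF-SOX2 tumour 1). The T-cell attractants Cxcl9 and Cxcl10 stood below 1.5 CPM in every tumour. The log2 fold change of Cxcl9 was -0.21 and turned to 2.43 without BRAF tumour 3, and that of Cxcl10 was -0.36, and -0.0037 without BRAF-SOX2 tumour 2. Cd274 (PD-L1; 0.90, adjusted p = 0.246), Gbp7 (1.22, 0.250) and Igtp (1.04, 0.275) completed the genes with the smallest p. Their log2 fold changes too moved with single tumours, that of Cd274 to 0.56 without BRAF tumour 1, that of Gbp7 to 0.64 without BRAF-SOX2 tumour 1, and that of Igtp to 0.68 without BRAF tumour 2 and 1.72 without BRAF tumour 3.

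Among 11 listed receptors that read class I molecules, or are related to such receptors, 9 were tested. By edgeR 0 passed (2.39% of all tested genes were called higher). Pirb alone had an unadjusted p below 0.05 and was called by DESeq2, both higher, as were 14.5% and 10.5% of all genes. Cd8a, a chain of the CD8 co-receptor, stood between 0 and 0.523 CPM in the BRAF tumours and between 0.168 and 0.421 CPM in the BRAF-SOX2 tumours. Pirb, an inhibitory class I receptor of myeloid cells, stood at 1.77, 1.25 and 5.04 CPM against 11.2, 9.04 and 7.11 CPM (log2 fold change 1.77, adjusted p = 0.096). Lilrb4a, a further myeloid inhibitory receptor, overlapped between groups, at 0.58, 4.85 and 2.38 CPM against 5.54, 5.15 and 3.72 CPM (adjusted p = 0.414).

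Markers of leukocytes, macrophages, dendritic cells and fibroblasts were higher in sum where the class I genes were, and their part in the result was not tested. The sums of neutrophil and of T and NK cell markers differed, with BRAF-SOX2 tumour 1 the lowest of its group. All 5 pan-leukocyte markers were higher in the BRAF-SOX2 tumours without overlap (18.2% of all tested genes were so), with a summed level of 29.7, 38.0 and 54.8 CPM in BRAF tumours 1, 2 and 3 and 154, 86.3 and 94.0 CPM in BRAF-SOX2 tumours 1, 2 and 3. Of these, Ptprc (CD45) rose from 10.1, 12.5 and 17.3 CPM to 43.2, 28.4 and 26.5 CPM (log2 fold change 1.30, adjusted p = 0.0483), and Coro1a rose too (1.59, adjusted p = 0.0437). The 10 macrophage and monocyte markers summed to 79.2, 103 and 174 CPM and to 701, 322 and 205 CPM. Of these, 7 were higher without overlap (18.2% of all tested genes), and Csf1r, the receptor of macrophage growth factor, was called (1.98, adjusted p = 0.0483). By edgeR 2 of the 5 leukocyte and 1 of the 10 macrophage markers rose (2.39% of all tested genes). At an unadjusted p below 0.05, 5 and 9 were higher, and DESeq2 called 4 and 7 higher, against 14.5% and 10.5% of all genes. The highest BRAF tumour for both sums was tumour 3 and the highest BRAF-SOX2 tumour was tumour 1, as for most class I genes, and BRAF-SOX2 tumour 2, the lowest of its group for the class I genes, was also the lowest for the leukocyte sum, while tumour 3 was the lowest for the macrophage sum. All 3 calls held without BRAF-SOX2 tumour 1 and were lost without any of the other 5 tumours, with an adjusted p of 0.0666 to 0.175 for Ptprc, 0.0537 to 0.175 for Coro1a and 0.0553 to 0.184 for Csf1r. With sex as a covariate the adjusted p was 0.0775, 0.0802 and 0.0717, and Ptprc also missed the threshold with DESeq2 size factors (0.0501) or upper-quartile scaling (0.051).

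The 12 T and NK cell markers summed to 16.3, 21.3 and 24.6 CPM against 18.2, 33.5 and 33.3 CPM in BRAF and BRAF-SOX2 tumours. BRAF-SOX2 tumour 1 was the lowest of its group. Of the 12, 0 passed the edgeR test (2.39% of all tested genes were called higher). An unadjusted p below 0.05 was found for 2 and DESeq2 called 1, all higher, against 14.5% and 10.5% of all genes. Most of that sum was Trbc2, a T-cell receptor constant segment, at 10.6 to 28.1 CPM, and the NK and cytotoxic markers Ncr1, Nkg7 and Prf1 were below 0.3 CPM in every tumour. Gzmb, granzyme B of cytotoxic cells, had the smallest p of the list, at 0.102, 0 and 0.095 CPM in the BRAF tumours and 0.532, 0.648 and 0.975 CPM in the BRAF-SOX2 tumours without overlap (edgeR adjusted p = 0.057, DESeq2 0.0042), and its BRAF values are at or below 3 counts. B-cell markers summed to at most 1.02 CPM. The 7 dendritic cell markers summed to 8.59, 8.50 and 9.88 CPM against 34.2, 10.8 and 19.7 CPM. Their sum had the order of the class I genes within the BRAF-SOX2 group, with BRAF tumour 3 the highest of its group. The 7 neutrophil markers summed to 333, 415 and 1210 CPM against 387, 1958 and 1353 CPM, with BRAF-SOX2 tumour 1 lowest of its group. Higher without overlap were 1 dendritic and 3 neutrophil markers (18.2% of all tested genes), and DESeq2 called 1 and 2 higher (10.5%). By edgeR 0 passed in both lists (2.39%), with 3 and 3 higher at an unadjusted p below 0.05 (14.5%).

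Endothelial cells express class I molecules as well, and their 8 markers summed to 182 to 199 CPM in the BRAF tumours and 188 to 220 CPM in the BRAF-SOX2 tumours. The 8 fibroblast markers summed to 2144, 773 and 5114 CPM and to 8442, 4017 and 4842 CPM, also with BRAF tumour 3 and BRAF-SOX2 tumour 1 the highest and BRAF-SOX2 tumour 2 the lowest of their groups, but with overlap. By edgeR 0 of the 8 passed (2.39% of all tested genes were called higher). At an unadjusted p below 0.05, 3 were higher and DESeq2 called 3 higher, against 14.5% and 10.5% of all genes. The 10 keratinocyte markers summed to 80806 to 120792 CPM and 13726 to 45652 CPM, with BRAF-SOX2 tumour 1 the lowest. Most of this sum is Krt1, Krt10 and Krt14, while the median log2 fold change of the 10 was 0.19, with 4 higher and 3 lower without overlap (18.2% and 16% of all tested genes). Among them Epcam, an epithelial surface protein of low level in interfollicular epidermis, rose (log2 fold change 3.67, adjusted p = 0.0309; 0.016 without BRAF-SOX2 tumour 1 and 0.0532 to 0.119 without any of the other 5, and 0.0838 with sex as a covariate). Adipocyte and melanocyte markers summed to at most 60.0 and 10.5 CPM in any tumour.

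**Figure D5:**
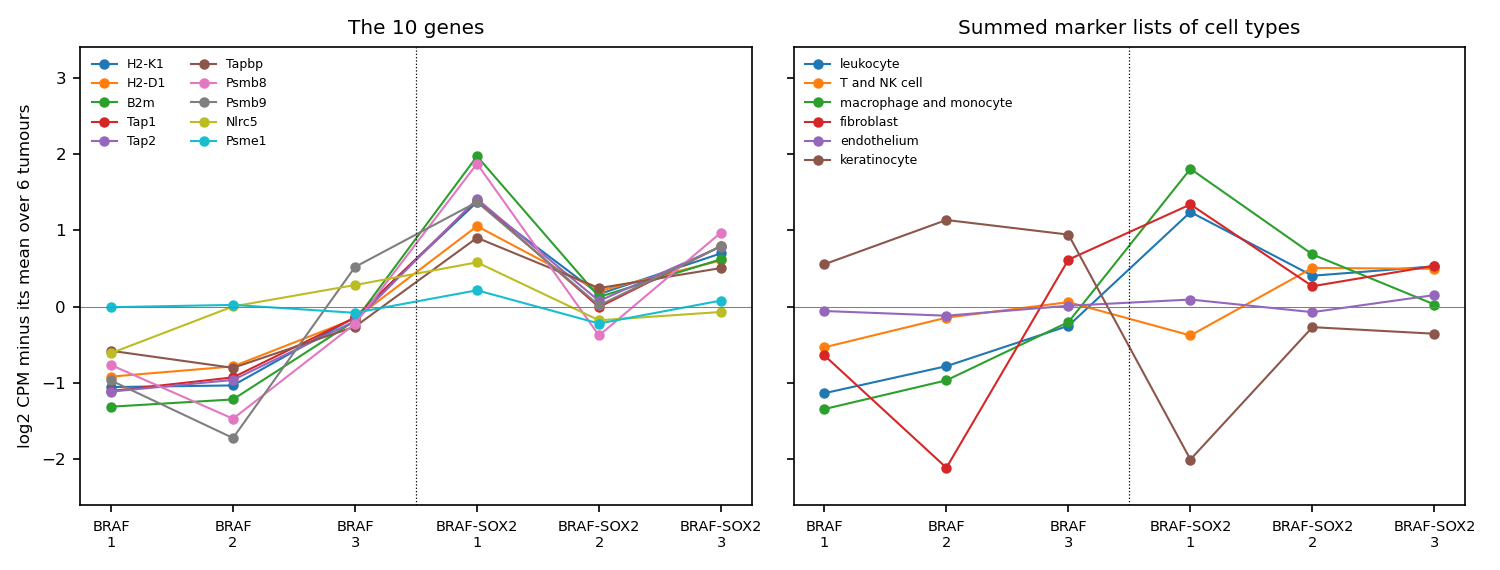
Log2 CPM minus its mean over the 6 tumours (vertical axis) in BRAF tumours 1 to 3 and BRAF-SOX2 tumours 1 to 3 (horizontal axis) for the 10 genes (left) and for the summed markers of 6 cell types (right); the lines join values of a gene or list and imply no order of the tumours. BRAF-SOX2 tumour 1 is the highest point of every gene on the left and of the leukocyte, macrophage and fibroblast sums on the right, and the lowest of the keratinocyte sum.

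The genes whose levels over the 6 tumours were most like the mean profile of the 10 were named as a description, by the root mean square distance of centred log2 CPM among 14420 other genes with a mean of at least 1 CPM. They were Gm6548 (distance 0.0909), Vash2 (0.11), Irf8 (0.115), Cd4 (0.126), Gab2 (0.129), Ggt5 (0.130), Chst12 (0.135) and Sema6b (0.136). Irf8 is a transcription factor of myeloid and dendritic cells, Cd4 is the T-cell co-receptor also found on some myeloid cells, and Gab2 is a signalling adaptor. Among the 10 themselves H2-D1 lay nearest to their mean (0.125), followed by H2-K1 (0.151), Tap1 (0.161), Tap2 (0.175) and Tapbp (0.215), while Psme1 lay farthest (0.686). Only 6 tumours of 2 groups underlie these distances, so many genes that differ between the groups share the shape.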

How the data were processed

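Reads were checked with FastQC 0.11.8, trimmed with Trim Galore, aligned to GRCm38 with HISAT2 2.1.0 and counted with featureCounts (Subread 1.6.3), per the submitters' processing notes. The authors deposited whole-number counts per gene in 1 table. ComBat-seq is named in the study's methods, and whether it touched this table is not given in the sources used here. The labels list 4 Ivl:BRAFV600E and 3 Ivl:BRAFV600E-SOX2LSL tumours. Columns are named by mouse; 6 were assigned by genotype lists of the study, and 1 was not used because it could not be matched. Nothing links replicate numbers to columns, and p-values measure the spread between these tumours.

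Genes that reached 5 reads in 1 or more tumours were scaled by TMM and tested with edgeR 4.0.16 (quasi-likelihood, genotype only, Benjamini-Hochberg over 24433 genes, threshold 0.05; biological coefficient of variation 0.372) in R 4.3.3. CPM are after TMM, and log2 CPM use a prior count of 2. Ratios were tested by exact permutation. Alternatives were DESeq2 1.42.0, limma 3.58.1, other scalings and filters, sex as a covariate, removal of the 10 most abundant genes and leaving out each tumour. Gene positions are from GENCODE M21. Figures were drawn with matplotlib 3.10.9. Scripts were tested on simulated data. Members, lists and the rule for named genes (the 10 genes, called genes and up to 4 others per list with the smallest p, and 8 genes of most similar profile) were chosen with earlier results of these data known. A few genes outside the rule are named for their role. A gene of these lists is not reported here and was left out of their counts.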

Additional observations from a re-analysis of the deposited data

How the results depend on the processing

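The number of the 10 genes called, 1 in the edgeR fit with TMM, was 7 with DESeq2, 3 with limma and 6 without a filter on low counts, 0 with sex as a covariate, and 0 to 1 with 1 tumour left out. The cause was not tested. Over all genes, 954 were called, against 3653 with DESeq2, 2142 with limma, 1759 without the filter, 228 with sex as a covariate and 22 to 1575 with 1 tumour left out (22 without BRAF tumour 1, 1575 without BRAF-SOX2 tumour 1). The median log2 fold change of the 10 genes stayed between 1.06 and 1.87 with 1 tumour left out. Of 140 combinations of a gene and an alternative, 4 reversed in sign: Psme1 to -0.041 with limma, -0.045 with upper-quartile scaling and -0.044 without BRAF-SOX2 tumour 1, and Nlrc5 to -0.063 without that tumour (ranges with 1 tumour left out -0.044 to 0.17 and -0.063 to 0.42). The other 136 kept their direction, 13 of them newly past the threshold and 6 no longer past it. The 4 ratios kept their direction in every alternative. No paired analysis was possible because the columns carry no replicate numbers. Counting error is largest for Psmb8 and Psmb9, with 9 to 47 reads in the BRAF tumours.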
